A study of Mus musculus with 8 samples.

Results

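Abundance of mRNA was followed for 6 genes that place, make or read the DNA breaks of meiosis, in germ cells that were still dividing by mitosis. The genes were *Spo11*, *Mei1*, *Ccdc36*, *Rec114*, *Prdm9* and *Zcwpw1*, chosen by name from the 5736 genes of the table, and all 6 were found in it. The choice was made with earlier results of these data known. The data were bulk RNA-seq of 8 libraries of EGFP-positive germ cells, sorted from testes of CD1:Uchl1-eGFP mice whose spermatogenesis had been synchronised. All mice received the retinoic acid (RA) synthesis inhibitor WIN 18,446 by mouth from postnatal day 1, at 100 µg per g of body weight, which held spermatogonia undifferentiated. Its last day was day 10 by the series design and day 11 by the sample protocol. Differentiation was then started on day 11 by 1 subcutaneous RA injection (10 µl, 10 µg/µl).

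The groups were undifferentiated spermatogonia (Aal, 2 libraries), type A1 differentiating spermatogonia (A1, 3 libraries) and type A3 differentiating spermatogonia (A3, 3 libraries). The series design places undifferentiated cells at day 11 and A1 cells on the day after RA, and the labels give no age for A3. The treatment text is the same for all samples and does not state separately that Aal mice went without RA. Each preparation pooled testes of several pups of a litter, and cells were gated on EGFP driven by the *Uchl1* promoter and on no stage marker. The transcripts of *Uchl1* (4048 to 7270 FPKM) and of the germ cell gene *Dazl* (303 to 437 FPKM) were abundant in all 8 libraries. FPKM is the number of reads per kilobase of gene, scaled to the reads of the library. Setting levels side by side between genes thus depends on the gene lengths used.

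Meiotic recombination starts with programmed double-strand breaks. SPO11 cuts the DNA together with its partner TOPOVIBL, and REC114, MEI4, IHO1 (the protein of *Ccdc36*) and MEI1 are accessory proteins without which few or no breaks form. In mice the sites are chosen by PRDM9, a zinc-finger methyltransferase that methylates histone H3, and ZCWPW1 reads the PRDM9 marks and acts in the repair of the breaks. Breaks form in leptotene spermatocytes, after the stages measured here.

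The genes fell into 3 patterns. *Spo11* mRNA was 2.45-fold lower in A1 than in Aal. *Mei1*, *Ccdc36* and *Prdm9* mRNAs were 2.77-fold, 2.34-fold and 2.65-fold higher in A1, as ratios of mean FPKM. *Rec114* and *Zcwpw1* differed by less than the spread between libraries. Between A1 and A3 no member was called, where a call needed a limma p of 0.01 or less after Benjamini-Hochberg adjustment and a log2 fold change beyond 1 in either direction. In that step 1.5% of all genes tested were called, so 0 of 6 is not a result about the members. In bulk samples, fewer cells holding a transcript and less transcript per cell cannot be told apart.

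**Figure D1:**
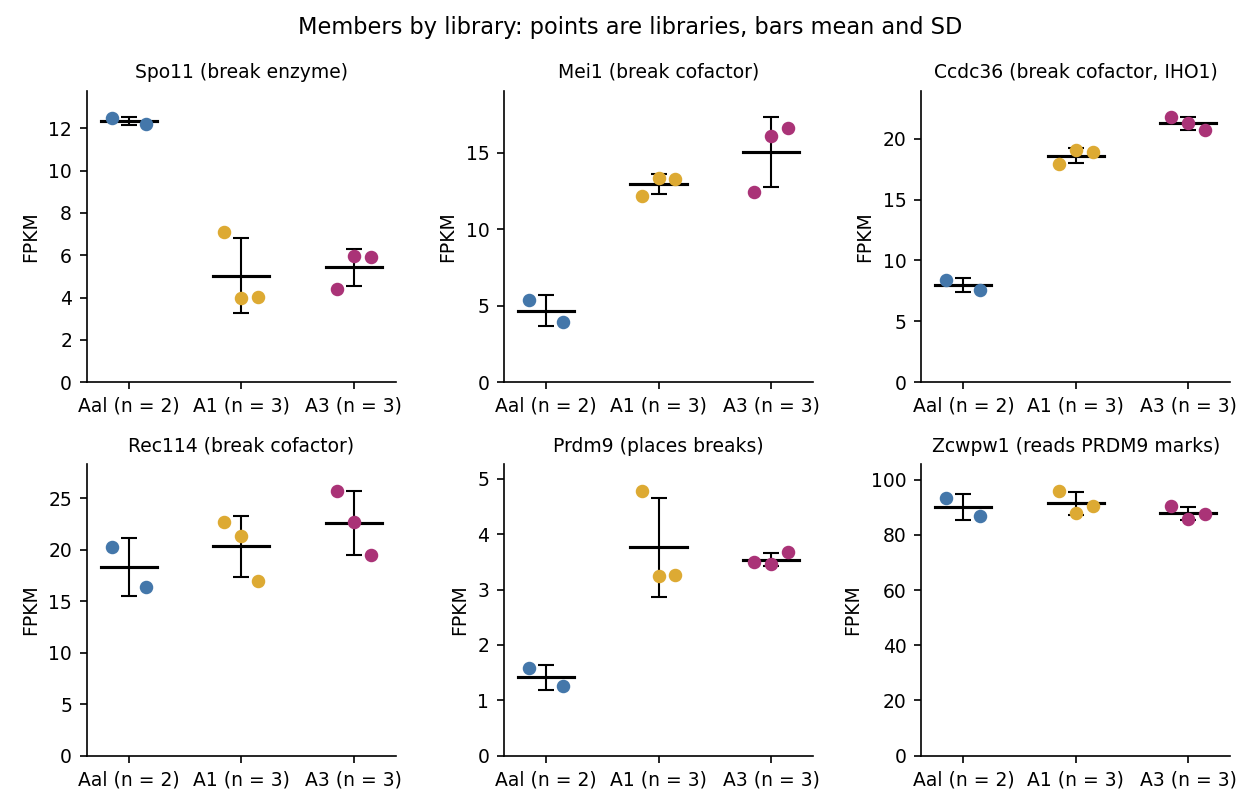
FPKM of each member (vertical axes, starting at 0) in every library of Aal, A1 and A3, with points for libraries and bars for the mean and SD. *Spo11* is highest in both Aal libraries, *Mei1*, *Ccdc36* and *Prdm9* are lowest there, and *Rec114* and *Zcwpw1* overlap between all groups.

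In mm9, the build of the deposited values, *Spo11* lies on chromosome 2 (172803201 to 172819077, plus strand), *Mei1* on chromosome 15 (81900426 to 81957244, plus strand) and *Ccdc36* on chromosome 9 (108305973 to 108330815, minus strand). *Rec114* lies on chromosome 9 (58500663 to 58589366, minus strand, listed by GENCODE M1 under its older symbol 2410076I21Rik). *Prdm9* lies on chromosome 17 (15680043 to 15701318, minus strand) and *Zcwpw1* on chromosome 5 (138229026 to 138263849, plus strand). All 6 are annotated as protein-coding. *Rec114* overlaps *Nptn* from 58500663 to 58500686, in 1 exon record, and *Zcwpw1* overlaps *Pilra* from 138263180 to 138263849, in 2 exon records. Both overlaps are with a gene on the other strand. Whether counting used strand is not stated, so the values of both members are uncertain over these stretches. Values are per gene and do not separate splice forms, such as those known for *Spo11*.

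Promoter windows, from 250 bases before to 50 bases after a transcript start in RefSeq (build GRCm38.p6), were matched for 5 of the 6 members: *Mei1*, *Ccdc36* (as Iho1), *Rec114*, *Prdm9* and *Zcwpw1*. They are shown for the 3 genes that were higher in A1 and for *Rec114*, which was not, and capitals mark exact matches to motifs searched on both strands. The *Prdm9* window is chr17:15564305-15564604 (minus strand), that of *Mei1* chr15:82082226-82082525 (plus strand), that of *Ccdc36* chr9:108431777-108432076 (minus strand) and that of *Rec114* chr9:58741510-58741809 (minus strand).
Prdm9: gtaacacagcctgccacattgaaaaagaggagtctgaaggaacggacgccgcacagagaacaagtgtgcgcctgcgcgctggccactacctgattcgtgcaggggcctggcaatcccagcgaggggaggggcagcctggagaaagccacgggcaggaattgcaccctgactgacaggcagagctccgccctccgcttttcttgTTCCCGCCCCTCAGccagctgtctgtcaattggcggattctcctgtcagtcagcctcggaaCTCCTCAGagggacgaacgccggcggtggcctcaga
Mei1: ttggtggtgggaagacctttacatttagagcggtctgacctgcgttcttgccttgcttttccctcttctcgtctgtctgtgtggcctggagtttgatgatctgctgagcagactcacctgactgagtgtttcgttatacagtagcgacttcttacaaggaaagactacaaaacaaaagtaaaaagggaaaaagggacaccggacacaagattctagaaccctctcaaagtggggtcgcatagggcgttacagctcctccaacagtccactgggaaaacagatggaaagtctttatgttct
Ccdc36: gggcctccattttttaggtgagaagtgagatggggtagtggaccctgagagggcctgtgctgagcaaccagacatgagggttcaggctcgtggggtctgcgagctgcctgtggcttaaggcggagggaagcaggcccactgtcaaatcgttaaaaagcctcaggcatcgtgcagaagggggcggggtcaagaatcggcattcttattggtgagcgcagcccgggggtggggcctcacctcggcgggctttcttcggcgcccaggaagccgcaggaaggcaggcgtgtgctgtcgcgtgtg
Rec114: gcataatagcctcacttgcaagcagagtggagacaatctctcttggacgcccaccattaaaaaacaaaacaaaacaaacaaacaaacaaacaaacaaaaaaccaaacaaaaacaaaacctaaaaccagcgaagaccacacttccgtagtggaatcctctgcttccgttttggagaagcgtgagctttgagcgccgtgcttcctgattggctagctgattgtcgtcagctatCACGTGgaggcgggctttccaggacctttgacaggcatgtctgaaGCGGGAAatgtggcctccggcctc

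The motifs were CACGTG (the E-box of MAX and MGA), TTCCCGC (E2F family), CNCCTCAG (described for STRA8) and AACNGCC and TAACNG (MYB family). Of all 32851 windows in the table, 7.15%, 4.6%, 7.94%, 12.1% and 23.3% held them in that order. The *Prdm9* window held 1 match to TTCCCGC and 2 to CNCCTCAG, the first of which shares its first base with the end of the E2F match. The *Rec114* window held CACGTG and the reverse complement of TTCCCGC. No match was found in the windows of *Mei1* and *Ccdc36*, in the other *Prdm9* window or in the 2 windows of *Zcwpw1*. The windows shown held 18 CpG dinucleotides for *Prdm9*, 17 for *Ccdc36*, 12 for *Rec114* and 8 for *Mei1*, against a median of 7 over all windows.

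Recovered library totals ran from 18276164 to 27316451 reads, and the table held 34.04% to 34.43% of them. Members were covered by 109 reads (*Prdm9* in Aal-2) to 5323 reads (*Zcwpw1* in A1-2), a counting error of 9.58% to 1.37%, which covers counting alone. One library, A1-3, stood apart from the other A1 libraries in markers of somatic cells. For Sertoli cells the 6 of 13 listed markers found in the table (*Amhr2*, *Cst12*, *Clu*, *Dhh*, *Cldn11* and *Fshr*) summed to 326 FPKM there, against 46.6 in A1-1 and 46 in A1-2. The same sum was 22.2 to 33.7 FPKM in Aal and 167 to 329 in A3. The 2 of 5 Leydig markers in the table summed to 6.86 FPKM in A1-3 and to 0.838 to 1.78 in the other libraries, the 2 of 4 peritubular myoid markers to 5.01 and to 0.874 to 2.76, and the 1 of 5 macrophage markers to 0.847 and to 0.0102 to 0.203. In A1-2 and A1-3, which differ in these sums, *Spo11* was at 3.98 and 4.02 FPKM, *Prdm9* at 3.24 and 3.26, *Mei1* at 13.3 and 13.3, *Ccdc36* at 19.0 and 18.9, *Rec114* at 21.3 and 17.0, and *Zcwpw1* at 87.9 and 90.5. *Rec114* was thus lower in A1-3 than in A1-2. In A1-1, with a Sertoli sum near that of A1-2, *Spo11* was at 7.10 FPKM and *Prdm9* at 4.79. There *Mei1* was at 12.2, *Ccdc36* at 17.9, *Rec114* at 22.6 and *Zcwpw1* at 96.1. Libraries with like sums thus also differed, and the part of other cell types in these values was not tested.

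A1 was set against Aal to ask which of these transcripts change as spermatogonia enter differentiation after RA. Values were compared as log2(FPKM + 1) with limma, and log2 fold changes are on this scale. Of the 6 members, all of which passed the filter on low values, 2 were called higher and 1 lower. The background, over the 4632 genes of the table that passed this filter and not over the whole genome, was 4.19% called higher and 4.97% called lower, 9.15% in all. With *Prdm9*, 4 members reached an adjusted p of 0.01 or less at any fold, against 27% of all genes. The median log2 fold change was 0.55 over the members and 0.03 over all genes tested. Since the members were chosen with earlier results of these data known, these shares describe them and test nothing.

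*Spo11*, the gene of the enzyme that cuts the DNA, was at 12.48 and 12.21 FPKM in Aal and at 7.10, 3.98 and 4.02 in A1. Both Aal libraries lay above every A1 library, and A1-1 lay apart from the other A1 libraries. The mean fell from 12.34 ± 0.192 FPKM (SD, n = 2) to 5.03 ± 1.79 (SD, n = 3). On the log2 scale the change was -1.18 (SE 0.22, limma adjusted p 0.00432). The call was lost without Aal replicate 1 (limma adjusted p 0.0454), without Aal replicate 2 (0.0498) and without A1 replicate 2 (0.0117), with log2 fold changes of -1.17, -1.20 and -1.07. Without A1 replicate 1 it was -1.42.

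A1-1 also held more of the undifferentiated marker transcripts than the other A1 libraries. *Nanos3* was at 21.7 FPKM in A1-1, 12.6 in A1-2 and 12.2 in A1-3, against 91.4 and 111.7 in Aal, and *Id4* was at 9.68, 6.11 and 4.42 FPKM in A1 against 32.2 and 24.7 in Aal. In A3-1, A3-2 and A3-3 *Nanos3* was at 15.3, 14.8 and 14.6 FPKM and *Id4* at 9.57, 6.31 and 7.13. *Spo11* was at 4.39, 5.94 and 5.93 FPKM there, lowest in A3-1. Endothelial markers, of which 3 of 5 were in the table (*Cdh5*, *Kdr* and *Tie1*), also summed lower in A1 (3.61 to 4.61 FPKM) and A3 (2.10 to 2.44) than in Aal (6.55 to 7.86). Most of the sum was *Cdh5*. *Tie1* went the other way, at 0.064 and 0.123 FPKM in Aal, 0.169 to 0.350 in A1 and 0.204 to 0.592 in A3. The part of undifferentiated or of endothelial cells in the *Spo11* values was not tested. Of the spermatogonial markers 7 of 15 were in the table, and of the red blood cell markers 0 of 4.

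*Mei1*, which encodes an accessory protein of break formation, was at 5.39 and 3.95 FPKM in Aal and at 12.2, 13.3 and 13.3 in A1. Every A1 library was above both Aal libraries, and the A1 libraries lay close together. The mean rose from 4.67 ± 1.02 (SD, n = 2) to 12.94 ± 0.650 FPKM (SD, n = 3), or 1.31 on the log2 scale (SE 0.13, limma adjusted p 0.000388).

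*Ccdc36*, the gene of IHO1, which joins the break machinery to the chromosome axis, was at 8.37 and 7.56 FPKM in Aal and at 17.9, 19.0 and 18.9 in A1. The groups did not overlap, and this was the most even of the members that rose, with a coefficient of variation of 3.21% within A1. The change was 1.13 on the log2 scale (SE 0.09, limma adjusted p 0.000219). Neither *Mei1* nor *Ccdc36* lost its call in any of the 14 alternatives, which gave 1.12 to 1.49 for *Mei1* and 1.07 to 1.23 for *Ccdc36*.

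*Prdm9*, the gene that places the breaks, had the lowest mean FPKM of the members, with 1.58 and 1.25 FPKM in Aal and 4.79, 3.24 and 3.26 in A1. The groups did not overlap, and A1-1 was again apart from the other A1 libraries, here as the highest. The change was 0.97 on the log2 scale (SE 0.18, limma adjusted p 0.00443), so *Prdm9* passed the p threshold and stayed just under the fold threshold. At this level the pseudocount of 1 FPKM takes up much of the change. With a pseudocount of 0.1 the value was 1.33 (limma adjusted p 0.00385) and with limma voom on the recovered reads 1.39 (0.00246), both called. It was also called with the replicate block (1.04), without A1 replicate 2 (1.04) and without A1 replicate 3 (1.04). Without A1 replicate 1 it was 0.82, and without Aal replicate 1 or 2 the limma adjusted p rose to 0.0287 or 0.0576.

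*Rec114*, which encodes a partner of MEI4 in the break machinery, was at 20.3 and 16.3 FPKM in Aal and at 22.6, 21.3 and 17.0 in A1. The groups overlapped. The log2 fold change was 0.14, with a 95% confidence interval from -0.19 to 0.47 and a limma adjusted p of 0.476, so the interval does not reach the fold threshold on either side.

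*Zcwpw1*, the reader of the PRDM9 marks, was at 93.4 and 86.9 FPKM in Aal and at 96.1, 87.9 and 90.5 in A1. It was the most abundant member in every library, from the 95.4th to the 96.7th percentile of the table. The log2 fold change was 0.02, with a 95% confidence interval from -0.14 to 0.18 and a limma adjusted p of 0.829. This was the narrowest interval of the 6 members.

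**Figure D2:**
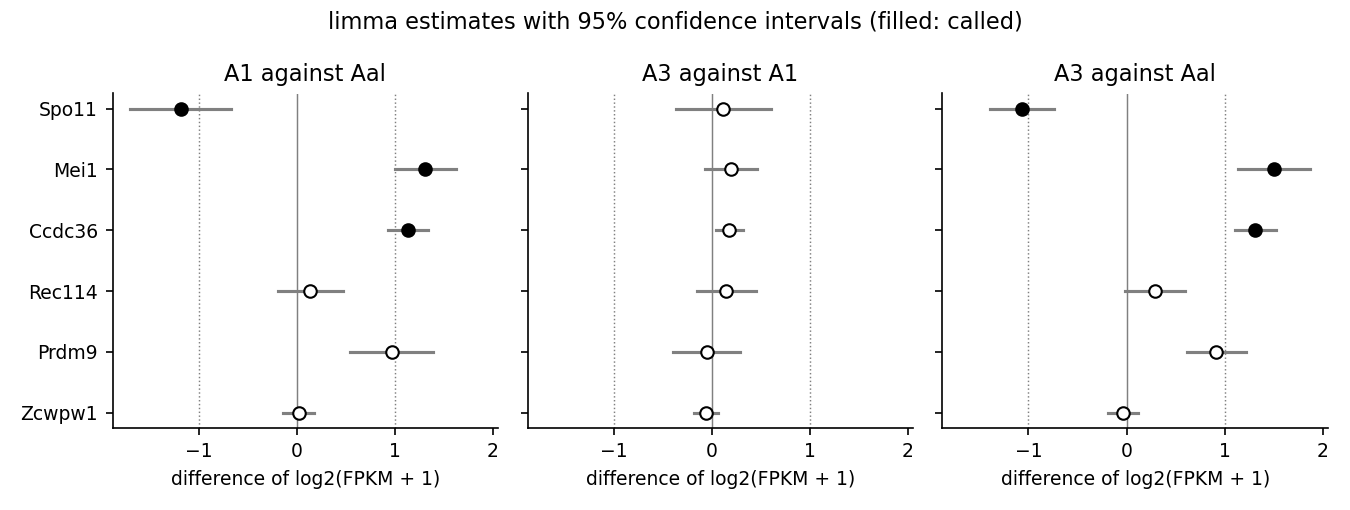
Difference of log2(FPKM + 1) with its 95% confidence interval for each member (rows) in the 3 comparisons (panels), with filled points for called members and dotted lines at the fold threshold of 1 in either direction. *Spo11* lies below 0 and *Mei1*, *Ccdc36* and *Prdm9* lie above 0 in both comparisons with Aal, and all members lie between -0.06 and 0.19 in A3 against A1.

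The libraries of A1 and Aal did not overlap for 4 of the 6 members, 3 higher and 1 lower. This is close to the share over all genes tested, of which 64% did not overlap in this comparison, 34.6% higher and 29.4% lower.

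The comparison of A3 with A1 asks whether the transcripts went on changing up to the middle of differentiation. None of the 6 members was called by limma, against 1.5% of the 4590 genes tested (0.479% higher). None reached an adjusted p of 0.01 at any fold, against 7.6% of all genes. At an unadjusted limma p under 0.05 there was 1 member, *Ccdc36*. The share of all genes at that level was not counted, so this is not a result about the members. With voom on the recovered reads, 199 genes and 0 members were called. *Ccdc36* was at 21.8, 21.3 and 20.7 FPKM in A3, and every A3 library lay above every A1 library. The change was 0.18 on the log2 scale (SE 0.06, limma adjusted p 0.0756). No overlap was seen for this member alone, against 38.1% of all genes tested in either direction.

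The other members overlapped between A1 and A3. *Spo11* was at 4.39, 5.94 and 5.93 FPKM in A3, a log2 fold change of 0.12 with a 95% confidence interval from -0.37 to 0.61. *Mei1* was at 12.4, 16.1 and 16.6 FPKM, with A3-1 within the A1 range, and its log2 fold change was 0.19 (-0.07 to 0.46). *Prdm9* was at 3.49, 3.47 and 3.67 FPKM, a log2 fold change of -0.05 (-0.39 to 0.29). For these 3 genes no interval reached the fold threshold.

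*Rec114* was at 25.7, 22.7 and 19.5 FPKM in A3, with a log2 fold change of 0.15 (95% confidence interval -0.15 to 0.45). *Zcwpw1* was at 90.4, 85.8 and 87.4 FPKM, with a log2 fold change of -0.06 (-0.18 to 0.07). Limma adjusted p values of the 6 members ran from 0.0756 to 0.844 in this step.

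That a member was called in the first step and not in the second does not show that the steps differ, so the difference of the steps, (A3 - A1) - (A1 - Aal), was tested over all 8 libraries. The A1 libraries enter both steps, and an error in them moves the steps in opposite directions. For *Ccdc36* the second step was smaller by 0.95 on the log2 scale (estimate -0.95, SE 0.12, limma adjusted p 0.00127). For *Mei1* the estimate was -1.12 (SE 0.24, limma adjusted p 0.00957). For *Prdm9* it was -1.02 (SE 0.26, limma adjusted p 0.0203), and for *Spo11* it was 1.303 (SE 0.35, limma adjusted p 0.025). For *Rec114* and *Zcwpw1* it was 0.01 and -0.08, with limma adjusted p values of 0.983 and 0.645.

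An adjusted p of 0.01 or less was reached by *Mei1* and *Ccdc36*, against 11.8% of 4789 genes tested. *Mei1* also passed the fold threshold and was the 1 member called, against 7.58% of all genes, 4.34% with a negative difference. *Ccdc36*, at -0.95, was just under that threshold and was called in 4 of 12 alternatives: with a pseudocount of 0.1 (-1.03), with voom (-1.04), without Aal replicate 1 (-1.01) and, at the threshold, without A1 replicate 1. Over 12 alternatives the limma adjusted p ran from 0.00084 to 0.011 for *Ccdc36*, from 0.0048 to 0.0461 for *Mei1*, from 0.0114 to 0.0781 for *Prdm9* and from 0.00303 to 0.112 for *Spo11*. *Mei1* lost its call in 9 of the 12. Leaving out a library moved it over 0.01 in 6 of the 8 cases: Aal replicate 2 (0.0367), A1 replicates 1, 2 and 3 (0.0198, 0.0461 and 0.0248) and A3 replicates 2 and 3 (0.0178 and 0.0132). Without A1 replicate 1 the *Spo11* estimate was 1.77, with a limma adjusted p of 0.00303.

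The net comparison of A3 with Aal called *Mei1* and *Ccdc36* higher and *Spo11* lower, over a background of 17.6% of 4687 genes (7.87% higher, 9.69% lower). It shares its Aal libraries with the first comparison and its A3 libraries with the second, so it is no independent evidence. *Spo11* was 2.28-fold lower in A3 (log2 fold change -1.07, SE 0.14, limma adjusted p 0.000365). *Mei1* was 3.22-fold higher (1.503, SE 0.16, limma adjusted p 0.000129) and *Ccdc36* 2.67-fold higher (1.31, SE 0.09, limma adjusted p 2.13e-05).

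*Prdm9* was 2.5-fold higher (0.91, SE 0.13, limma adjusted p 0.00053) and again under the fold threshold. *Rec114* (0.29, 95% confidence interval -0.02 to 0.60) and *Zcwpw1* (-0.04, -0.19 to 0.12) had limma adjusted p values of 0.0951 and 0.679. An adjusted p of 0.01 or less at any fold was found for 4 members, against 43.7% of all genes. The libraries did not overlap for the same 4 members, 3 higher and 1 lower, against 73.1% of all genes (38.9% higher, 34.2% lower). Without A3 replicate 1 *Spo11* was at -0.94 and no longer called, with a limma adjusted p of 1.99e-05, and without Aal replicate 1 *Prdm9* was called (1.01, limma adjusted p 0.00417).

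The order of the levels changed with the stage. In Aal it was *Zcwpw1* (90.1 FPKM), *Rec114* (18.3), *Spo11* (12.3), *Ccdc36* (7.96), *Mei1* (4.67) and *Prdm9* (1.42), and no neighbours in this order overlapped between their libraries. In A1 *Spo11* (5.03 FPKM) came after *Rec114* (20.3), *Ccdc36* (18.6) and *Mei1* (12.9). There *Rec114* and *Ccdc36* overlapped, as did *Spo11* and *Prdm9* (3.76). In A3 the order was that of A1, and *Rec114* (22.6 FPKM) and *Ccdc36* (21.3) again overlapped, while *Spo11* (5.42) lay above *Prdm9* (3.54) in every library. These orders rest on the gene lengths behind the FPKM values. The length recovered from those values was 1755 bases for *Spo11* and 3460 for *Prdm9*, against 3921 and 4421 bases of exon in GENCODE M1. The place of *Spo11* in the order therefore depends on the length used, and other lengths were not tested.

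Ratios within a library show the same shifts free of library scaling. *Zcwpw1* exceeded *Prdm9* by 59.1 and 69.2 times in the Aal libraries, by 20.1, 27.1 and 27.8 times in A1 and by 25.9, 24.8 and 23.8 times in A3. The reader of the marks was thus always the more abundant message than their writer, and the ratio did not overlap between Aal and the other groups. *Rec114* over *Ccdc36* averaged 2.29 (SD 0.189, n = 2) over Aal, 1.09 (SD 0.183, n = 3) over A1 and 1.06 (SD 0.121, n = 3) over A3. *Mei1* over *Spo11* was 0.432 and 0.323 in Aal, 1.72, 3.35 and 3.31 in A1 and 2.83, 2.71 and 2.80 in A3. The ratios use the same values as the comparisons and were not tested.

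**Figure D3:**
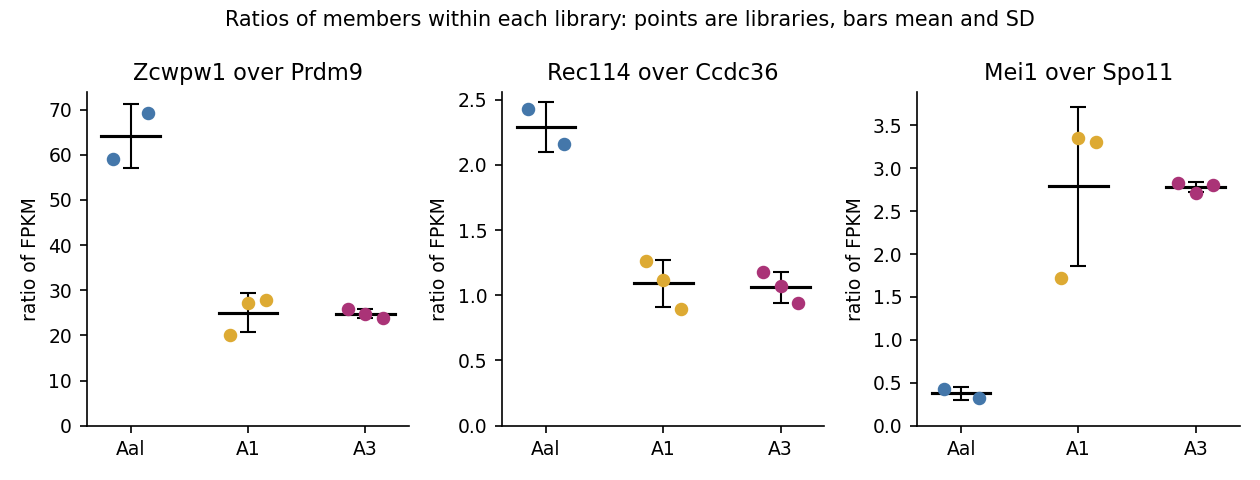
Ratio of FPKM between pairs of members within each library (vertical axes, starting at 0), with points for libraries and bars for the mean and SD of Aal (n = 2), A1 (n = 3) and A3 (n = 3). *Zcwpw1* over *Prdm9* and *Rec114* over *Ccdc36* are highest in both Aal libraries, and *Mei1* over *Spo11* is lowest there.

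The genes nearest in pattern were found as those with the smallest root mean square difference of centred log2(FPKM + 1) over the 8 libraries, among 4789 genes. For *Ccdc36* they were *Foxm1* (0.045), *Rcn2* (0.051) and *Hells* (0.072). For *Mei1* they were *Hid1* (0.092), *Ckap2l* (0.093) and *Kif4* (0.098), and for *Prdm9* *Spc24* (0.104), *Map1a* (0.116) and *Gnb5* (0.125). For *Spo11* they were *Fgl1* (0.106), *Eml2* (0.128) and *Zmynd15* (0.129).

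For *Rec114* they were *Ppp1r3c* (0.081), *Abhd18* (0.082) and *Tomm7* (0.083), and for *Zcwpw1* *Dnajb6* (0.036), *Sdhc* (0.039) and *Hspa9* (0.040). No member was among the 3 nearest genes of another. The closest pair of members was *Mei1* and *Ccdc36* (0.159), in which *Ccdc36* ranked 22nd from *Mei1* and *Mei1* 52nd from *Ccdc36*. The farthest pair was *Spo11* and *Mei1* (1.12).

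Other genes of meiosis were described from lists written from general knowledge, with earlier results of these data known. Their counts beside the shares over all genes are descriptions and no test. Besides the members, 25 listed genes were in the table. Of these, 5 were called higher and 0 lower by limma in A1 against Aal, with a median log2 fold change of 0.17 against 0.03 over all genes tested, of which 4.19% were called higher and 4.97% lower. Without a fold threshold, 10 of the 25 were higher and 2 lower (*Hsf2bp* and *Rad21l*) at an adjusted p of 0.01 or less, against 27% of all genes in either direction. In A3 against A1, 1 was called higher (2 calls without A3 replicate 1), against 0.479% of all genes higher and 1.02% lower. In A3 against Aal, 5 were called higher and 1 lower, against 7.87% and 9.69% of all genes. *Mei4* and *Ankrd31* were not analysed here.

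Among genes of the break machinery, *Hormad1*, whose protein recruits the machinery to unsynapsed axes, averaged 17.3 FPKM (SD 2.44, n = 2) among undifferentiated cells and 32.1 (SD 0.267, n = 3) among A1 cells. The change of 0.86 on the log2 scale (limma adjusted p 0.000437) was under the fold threshold, and it was 26.8 ± 5.02 FPKM in A3. *Gm960*, the gene of the SPO11 partner TOPOVIBL, is named here after its values were seen. It averaged 7.67 FPKM (SD 0.668) over Aal, 6.65 (SD 0.714) over A1 and 7.61 (SD 0.441) over A3. Both Aal libraries lay above every A1 library, but barely, with a lowest Aal value of 7.20 FPKM and a highest A1 value of 7.18. Of all genes tested, 29.4% were lower in A1 without overlap. The log2 fold change of *Gm960* in A1 against Aal was -0.18 (95% confidence interval -0.48 to 0.11, limma adjusted p 0.286), while that of *Spo11* was -1.18.

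Among genes that place or read breaks, *Hells*, a chromatin remodeller that opens PRDM9 sites, rose from 122 ± 16.3 FPKM in Aal to 271 ± 10.9 in A1 (log2 fold change 1.15, limma adjusted p 0.000245). It was at 288 ± 24.5 FPKM in A3. Its level was thus far above that of *Prdm9* in every group. *Cxxc1* and *Ewsr1*, which encode PRDM9-binding proteins, had log2 fold changes of 0.23 and 0.17 in A1 against Aal (limma adjusted p 0.0454 and 0.0433) and were not called.

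Of the listed genes of break sensing and resection, only *Mre11a*, *Topbp1* and *Tdp2* were in the table. Others on that list, such as *Atm*, *Rad50*, *Nbn* and *Brca1*, were not analysed, so this step was covered in small part. None of the tested genes was called in A1 against Aal, with log2 fold changes of -0.06, -0.05 and 0.01. Among genes of strand exchange, *Dmc1*, the meiotic recombinase, rose from 7.84 ± 1.82 to 20.3 ± 2.28 FPKM, or 1.28 on the log2 scale (limma adjusted p 0.000591). *Psmc3ip*, which encodes a DMC1 accessory factor, was just under the fold threshold in A1 against Aal (0.998, limma adjusted p 0.0065) and was called in A3 against Aal (1.29, limma adjusted p 0.000503). *Hsf2bp*, which encodes a BRCA2-binding protein of meiotic recombination, was at -0.64 (limma adjusted p 0.00391) and not called.

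Of the axis and synapsis genes, *Rec8*, a meiotic cohesin, and *Syce2*, a central element protein, were called higher in A1, with log2 fold changes of 1.37 and 1.07 and limma adjusted p values of 0.00042 and 0.000392. *Rad21l*, another meiotic cohesin, was called lower in A3 against Aal (-1.40, limma adjusted p 3.55e-05), from 15.5 FPKM in Aal to 5.24 in A3. *Sycp1*, the transverse filament gene, was at 59.1 to 67.1 FPKM in Aal, 59.2 to 60.4 in A1 and 51.5 to 84.2 in A3. Of the regulators, *Sohlh2* was called higher in A1 (1.14, limma adjusted p 0.000287) and *Dmrtb1* in A3 over A1 (2.52, limma adjusted p 0.000195).

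**Figure D4:**
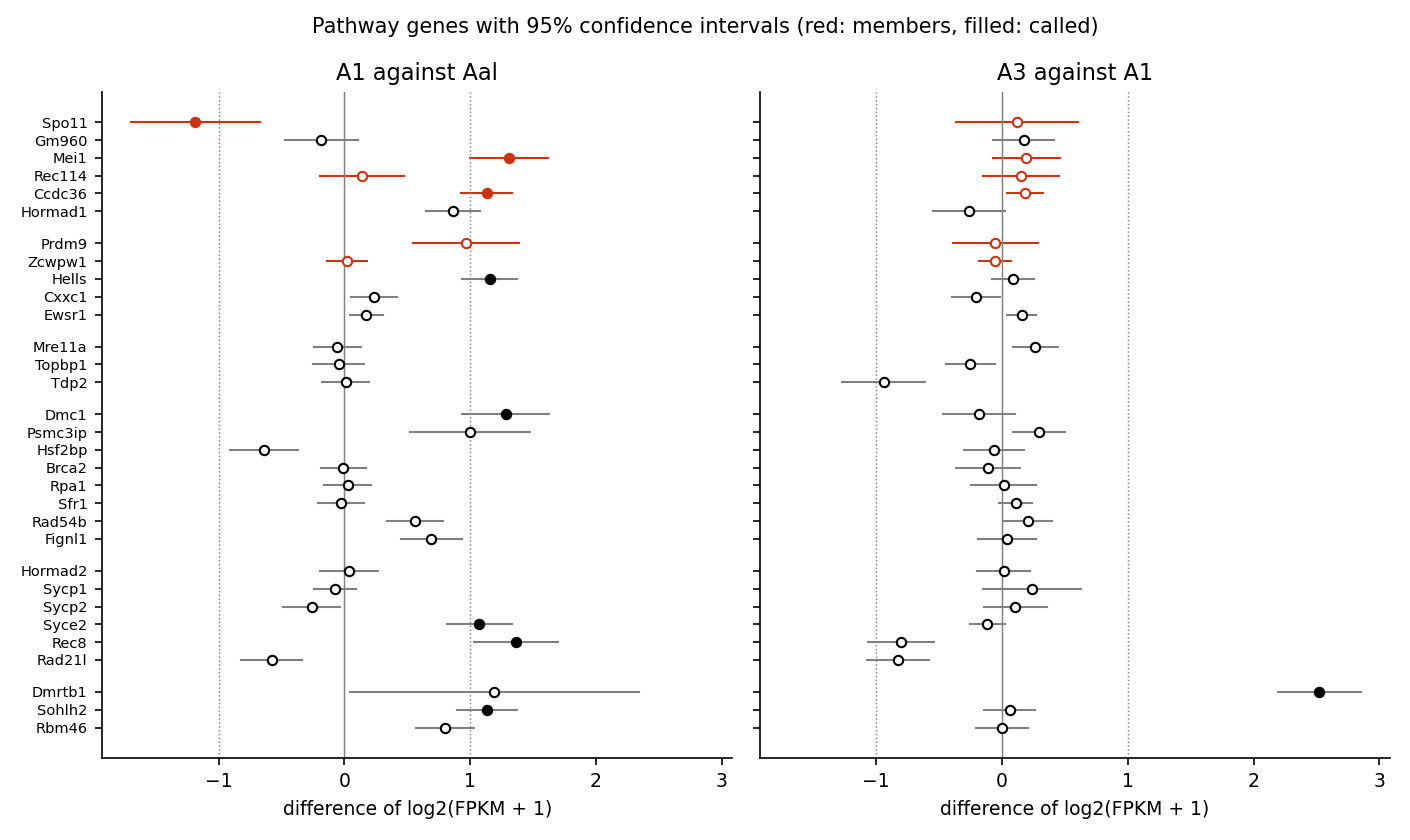
Difference of log2(FPKM + 1) with its 95% confidence interval for members (red) and other listed meiosis genes (black), grouped from top to bottom as break machinery, placement and reading, sensing and resection, strand exchange, axis and synapsis, and entry regulators. In A1 against Aal (left) filled points, the called genes, lie on both sides for members and only above 0 for the others, and in A3 against A1 (right) *Dmrtb1* is the only called gene.

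Markers of more advanced germ cells were read beside these values. Of 14 markers of spermatocytes and later cells, 4 were in the table (*Sycp1*, *Ldhc*, *Meig1* and *Spag6l*), and they summed to 78.1 and 69.2 FPKM in Aal and to 63.6 to 65.3 in A1. Most of the sum was *Sycp1*, and in A3 it was 64.4, 97.2 and 98.1 FPKM by library. *Ldhc*, expressed from meiosis on, was at 4.43 and 4.77 FPKM in Aal, at 1.54, 1.34 and 1.504 in A1 and at 3.14, 1.84 and 3.42 in A3. *Meig1* was at 5.98 and 4.40 FPKM in Aal, at 4.25, 2.28 and 2.56 in A1 and at 9.57, 10.8 and 13.0 in A3, above all other libraries. *Spag6l* was under 1 FPKM in every library. The part of more advanced germ cells in the member values was not tested.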

How the data were processed

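Adapters were trimmed by the authors with cutadapt 1.9, reads were aligned to mm9 with STAR 2.5.2b and assigned to genes with featureCounts. Libraries came from a stranded mRNA kit, and the use of strand in counting, the annotation and the step to FPKM are not given in the sources used here. The deposited FPKM values, 1 column per library, were read as they stand.

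After a pseudocount of 1 FPKM and log2 transformation, the libraries of each pair of groups were compared with two-sided tests in limma 3.58.1 under R 4.3.3, using eBayes with a mean-variance trend. Genes with at least 1 FPKM in at least 2 libraries were tested. P-values were adjusted over all genes tested, with thresholds of 0.01 on the adjusted p and 1 on the log2 fold change in either direction. The difference of the steps was fitted on all 8 libraries. Fold changes on this scale understate those of low genes.

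Whole reads and library totals were recovered from the steps of the FPKM values, with 99.93% of values rebuilt within a relative tolerance of 1e-05. No count model was the main test, since the values are not counts. Both procedures were tested on simulated data. The libraries came from separate cell preparations, and p-values measure the spread between them.

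Members and lists were chosen with earlier results of these data known. Named genes were the members, listed genes called in any comparison, *Dmc1*, *Rec8*, *Mei4*, *Ankrd31*, *Hormad1*, *Hells*, *Uchl1* and the 3 nearest genes of each member. Others were chosen after their values were seen. The lists were break machinery, placement and reading, sensing and resection, strand exchange, axis and synapsis, entry regulators, and cell type markers. Alternatives covered the pseudocount, filter, scaling, trend, voom, threshold, replicate block and each replicate.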

Additional observations from a re-analysis of the deposited data

How the results depend on the processing

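Of 327 member values under alternatives, 290 kept their direction and stayed called or not called, 13 lost a call, 13 gained one and 11 changed sign, none of the last called. The 290 include values that crossed the p threshold with no change of call, such as the *Ccdc36* difference of the steps without A1 replicate 2. With a pseudocount of 0.1, 670 genes were called in A1 against Aal (424 as reported) and 152 in A3 against A1 (69). Voom on recovered reads gave 731 and 199, and a minimum of 5 FPKM, under which *Prdm9* was not tested, gave 538 in A3 against Aal (823). Leaving out 1 library at a time gave 179 (without Aal replicate 2) to 475 calls in A1 against Aal, 26 (without A3 replicate 2) to 111 (without A1 replicate 3) in A3 against A1 and, for the difference of the steps (363), 96 (without A1 replicate 2) to 370. For other listed genes in A3 against A1 it gave 1 to 2. Where 1 Aal library was left, it was assumed to vary like the other group. Log2 values that changed sign ran, with 1 library left out, from -0.009 to 0.289 for *Rec114* and -0.030 to 0.073 for *Zcwpw1* in A1 against Aal, -0.128 to 0.097 for *Prdm9* in A3 against A1, -0.087 to 0.016 for *Zcwpw1* in A3 against Aal, and -0.225 to 0.170 for the *Rec114* difference of the steps. That difference was -0.036 with voom, and median-ratio scaling gave -0.030 for *Zcwpw1* in A1 against Aal. The causes were not tested. With the replicate number as a block, there were 444 calls in A1 against Aal, 39 in A3 against A1, 800 in A3 against Aal and, for the difference, 220, and the *Rec114* difference was -0.098. The numbers were not taken as a pairing: the labels tie them to no litter, same-numbered A1 and A3 libraries correlated at -0.107, 0.022 and -0.323 in their deviations from group means, and 0 of 6 libraries correlated best with their own number. *Prdm9* had the fewest reads, 109 in Aal-2, a counting error of 9.58%, and its coefficient of variation between libraries was 16.2% in Aal and 23.7% in A1.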

Other observations

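Several listed genes passed an adjusted p of at most 0.01 without reaching the fold threshold. Of the 25 listed genes besides the members, 10 were higher and 2 lower (*Hsf2bp* and *Rad21l*) at that p in A1 against Aal. These counts include called genes, and the share over all genes tested was 27% in either direction. *Rad54b* and *Fignl1*, which encode factors acting with the recombinases, had log2 fold changes of 0.56 (limma adjusted p 0.00305) and 0.69 (0.00178) in A1 against Aal, and *Rbm46*, an RNA-binding protein gene of the germ line, 0.80 (0.000819). In the second step, *Tdp2*, which encodes a phosphodiesterase that frees DNA ends of bound topoisomerase, was at -0.94 (limma adjusted p 0.00456) in A3 against A1, after 0.01 in A1 against Aal. *Rec8* and *Rad21l* were at -0.80 (limma adjusted p 0.00371) and -0.83 (0.00269) in the same step. In that step 1 of the 25 genes was higher and 3 were lower at an adjusted p of at most 0.01, against 7.6% of all genes tested.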
